A study of Sus scrofa with 8 samples.

Results

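The forkhead (FOX), SRY-related HMG-box (SOX), GATA and T-box genes encode 4 families of transcription factors, and their promoters and surroundings were examined in pig embryonic fibroblasts (PEFs). The genes were taken by symbol from the RefSeq annotation of Sscrofa11.1, as protein-coding genes named FOX with a letter and a number, SOX, GATA or TBX with a number, and EOMES, apart from a pair of SOX genes that was left out beforehand. There were 80 such genes among 19487 protein-coding genes on chromosomes 1 to 18 and X, of which 43 were FOX, 17 SOX, 6 GATA and 14 T-box genes. The cells came from Large White pig fetuses aged 35 days, were cultured for 24 h and received no treatment. ChIP-seq, in which DNA bound to a chosen protein is pulled down with an antibody and sequenced, was made for trimethylated histone H3 lysine 4 (H3K4me3), acetylated histone H3 lysine 27 (H3K27ac) and the insulator protein CTCF, with 2 replicates each. The labels number the replicates but do not tie them to separate fetuses or cultures, so the spread between them may be technical. With a single cell type and no second condition there was no contrast to test, and genes are not replicates. Counts and medians over the 80 genes are therefore set beside the same value over all protein-coding genes, as a description.

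Each family is defined by a DNA-binding domain. FOX proteins carry the forkhead (winged helix) domain, SOX proteins a high mobility group domain that bends DNA, GATA proteins zinc fingers that read the sequence they are named for, and T-box proteins the domain first found in Brachyury. Most members are known for setting the identity of a tissue in the embryo, such as limb, gut mesenchyme, heart, neural tube or blood, while some FOX genes are active in nearly every cell. H3K4me3 lies at promoters, H3K27ac lies at active promoters and enhancers, and CTCF binds sites that anchor chromatin loops. Promoters of developmental genes often carry H3K4me3 in cells that do not use the gene, so the pair of marks was read together.

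The lists held 37932 and 43516 H3K4me3 peaks, 74983 and 81164 H3K27ac peaks, and 40289 and 44682 CTCF peaks in replicates 1 and 2. The height of a peak is given as its fold enrichment, which is the ratio of ChIP to control signal that the authors' peak caller reported, and where several peaks lay near a start the highest was used. This value belongs to the highest point of the peak, which could lie more than 1 kb from the start. For H3K27ac at FOXC1 that point lay 3659 and 3546 bp downstream. A height given at a start is thus that of a peak reaching it. H3K4me3 fold enrichment was higher in replicate 1 at 63 of the 64 genes with a peak in both replicates, with a median ratio of 2.01, and the same median ratio was found over all genes, so heights are compared within a replicate. Markers were checked first. All 18 listed fibroblast markers carried both histone marks at the transcription start site (TSS), against 1 of 7 epithelial markers (CLDN4), 1 of 2 neural markers (SNAP25), and 0 of 6 endothelial, 0 of 5 blood and 0 of 4 skeletal muscle markers. Some markers of other cell types carried 1 histone mark, and SPI1, a blood factor, had H3K27ac without H3K4me3 at 12.4 and 17.0. Whether a few other cells were present was not tested.

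A peak was counted at a gene when it overlapped the window of 1 kb on either side of the TSS. Of the 80 genes, 64 (80%) had H3K4me3 at the TSS in both replicates, against 68.9% of all protein-coding genes. H3K27ac was found there at 40 genes (50%), against 60.7% of all genes. Both histone marks were present at 39 genes (48.8%, against 58.9%). H3K4me3 without H3K27ac in either replicate was found at 20 genes, or 25%, against 8.25% of all genes. Neither mark was found at 13 genes (16.2%, against 27.5%), H3K27ac without H3K4me3 at FOXP4 alone among the 80 (against 1.45%), and at 7 genes (8.75%, against 3.87%) the replicates differed in a histone mark. Among the 64 genes with H3K4me3, 31.2% lacked H3K27ac, against 12% of all genes with H3K4me3.

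**Figure D1:**
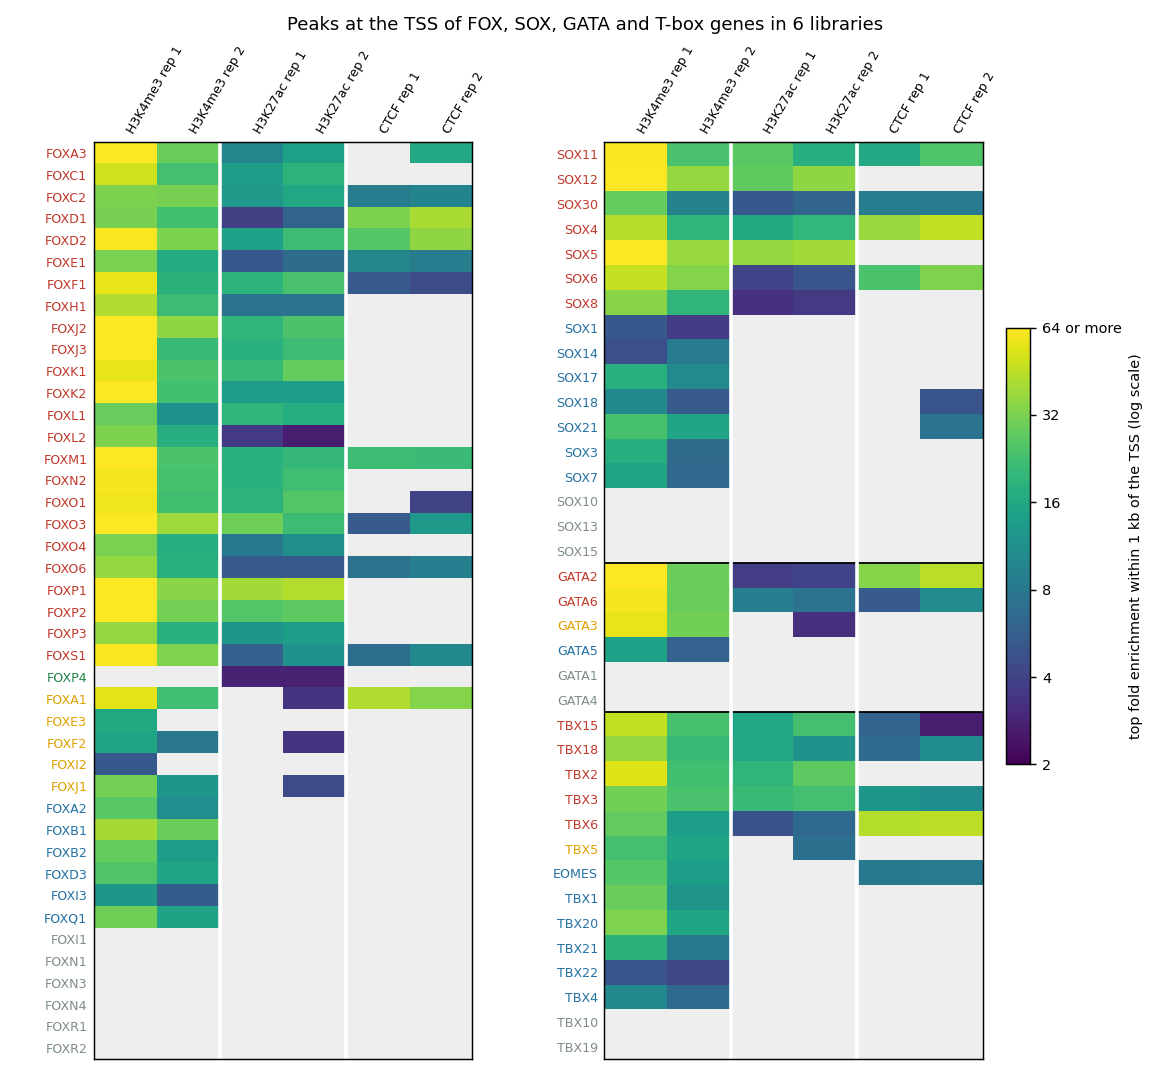
Top fold enrichment of peaks that overlap the 1 kb on either side of the TSS (colour, log scale, grey where there was no peak, yellow at 64 or more) of the genes (rows, 1 of the 80 not shown, FOX at the left, then SOX, GATA and T-box at the right) in the 6 libraries (columns). The highest point of such a peak may lie outside the window. Red names mark genes with both histone marks, green H3K27ac without H3K4me3, yellow genes whose replicates differ, blue H3K4me3 without H3K27ac, and grey neither mark, and the 20 blue genes show colour in the H3K4me3 columns and none in the H3K27ac columns.

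One setting turned the order of the H3K4me3 counts. When the summit of a peak, its highest point, had to lie within 1 kb of the TSS, 34 of the 80 genes had H3K4me3, against 52.2% of all genes, and 15 had both marks, against 41.7%. H3K4me3 without H3K27ac was found at 15 genes under that setting, against 7.99% of all genes. The share with H3K4me3 alone thus stayed above that of all genes when the share with H3K4me3 did not. With a window of 5 kb, H3K4me3 was found at 69 genes and H3K27ac at 48, against 74.7% and 66.9% of all genes.

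The families differed in how the classes were filled, although with 6 GATA genes and 14 T-box genes the shares are coarse. Both marks were found at 25 of 43 FOX genes (58.1%), 7 of 17 SOX genes (41.2%), 2 of 6 GATA genes (33.3%) and 5 of 14 T-box genes (35.7%). H3K4me3 without H3K27ac was found at 6 FOX genes (14.0%), 7 SOX genes (41.2%), 1 GATA gene (16.7%) and 6 T-box genes (42.9%). The share with H3K4me3 and no H3K27ac was thus highest among the T-box and SOX genes, and it was 51.4% among 107 homeobox and PAX genes, another large group of developmental regulators taken by symbol. Of these homeobox and PAX genes, 87.9% had H3K4me3 and 33.6% had H3K27ac at the TSS.

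Lists of genes by known role were drawn up with earlier results of these data known and share some genes, so the counts by role are a description and support no ranking of the roles. Of 18 genes listed for mesenchyme and limb, 15 carried both histone marks in both replicates, where 58.9% of all genes did, TBX4 carried H3K4me3 without H3K27ac, and at FOXF2 and TBX5 the replicates differed. With the summit in the window, 3 of the 18 had both marks, against 41.7% of all genes. FOXC1, a factor of head and somite mesenchyme, had H3K4me3 at 50 and 23.1 and H3K27ac at 13.8 and 18.9 in replicates 1 and 2. FOXF1, needed in the mesenchyme of lung and gut, had H3K4me3 at 56.9 and 18.5 and H3K27ac at 18.7 and 23.6. TBX15, which acts in dermis and skeleton, had H3K27ac at 15.9 and 23.0. TBX2 and TBX3, related repressors of limb and heart, had H3K27ac at 19.2 and 27.2 (TBX2) and at 21 and 22.8 (TBX3). SOX5, a factor of cartilage, had the highest H3K27ac of the SOX genes at 36.9 and 39.4, while SOX6, its partner in cartilage, was at 4 and 4.98 at its annotated start. GATA6, a factor of heart and gut, had the highest H3K27ac of the GATA genes at the annotated start, at 8.91 and 7.51, although GATA2 and GATA3 were higher at other starts, as given below.

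Of 15 genes listed as broadly used, 12 had both histone marks, against 58.9% of all genes. With the summit in the window 4 of the 15 had both, against 41.7% of all genes. FOXP4 had H3K27ac without H3K4me3, and FOXN3 and SOX13 had neither at the annotated start. FOXP1, a repressor of many tissues, had the highest H3K27ac of the 80 genes, at 39.8 and 42.7, above 98.7% of all genes, with H3K4me3 at 67.3 and 34.4. FOXP2, known for brain and lung and not on that list, was at 25.3 and 27.1, and FOXO3, a target of insulin signalling, at 29.9 and 21.6. FOXP1 was above both in each replicate, while FOXP2 and FOXO3 changed order between replicates. FOXO4, a relative of FOXO3, was lower at 8.14 and 11.2. Among the SOX genes, SOX12, a broadly used gene, was at 27.4 and 36.0 and SOX11, of the mesenchyme list, at 26.2 and 17.5, so that SOX5 and SOX12 were above SOX11 in each replicate. At FOXP4 the H3K27ac peaks were weak, 2.82 and 2.76, and its H3K4me3 cover within 5 kb was 503 bp in replicate 1 and 0 bp in replicate 2.

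A neighbouring gene started within 1 kb of the TSS at 16 of the 80 genes (20%, against 18.2% of all genes), and 14 of the 16 were FOX genes. FOXA3, a liver factor, had H3K27ac at 9.79 and 14.3 and started within 1 kb of SYMPK. FOXP3, known from regulatory T cells, had H3K27ac at 12.6 and 13.9 and started within 1 kb of PPP1R3F. FOXH1, an early embryonic factor, had 7.39 and 7.47 and started within 1 kb of PPP1R16A, and FOXM1, which drives genes of cell division, had 18.4 and 20 and started within 1 kb of RHNO1. A peak counted in such a window need not overlap the start of the FOX gene, and at FOXA3 the nearest H3K27ac peak lay 669 and 490 bp from it. The part of the neighbour in these values was not tested.

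The 20 genes with H3K4me3 and no H3K27ac were FOXA2, FOXB1, FOXB2, FOXD3, FOXI3 and FOXQ1, then SOX1, SOX3, SOX7, SOX14, SOX17, SOX18 and SOX21, then GATA5, and EOMES, TBX1, TBX4, TBX20, TBX21 and TBX22. Over all genes, 8.25% were in this class, 58.9% had both marks and 27.5% had neither, and the counts by role below stand beside these shares. Of 11 genes listed for the neural tube and neural crest, 7 were in this class, 2 had both marks and 2 had neither. Of 9 genes listed for the heart, 6 were in this class and GATA6 had both marks, while with a window of 5 kb 4 of the 9 had both marks, against 64.2% of all genes. Of 10 genes listed for endoderm and gut, 4 were in this class and 4 had both marks (FOXA3, FOXE1, FOXH1 and GATA6). With the summit in the window these counts were 1 and 1, against 7.99% and 41.7% of all genes. Of 7 genes listed for blood and immune cells, EOMES and TBX21 were in this class, GATA2 and FOXP3 had both marks, and GATA1 and FOXN1 had neither. Of 5 germ line and gonad genes, SOX30 and FOXL2 had both marks and FOXR1, FOXR2 and SOX15 had neither. Of 5 genes listed for primitive streak and somite, FOXC1, FOXC2, TBX6 and TBX18 had both marks and EOMES had H3K4me3 without H3K27ac.

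H3K4me3 at these 20 genes was lower than at the 39 genes with both marks, as it was over all genes. Their median H3K4me3 fold enrichment was 18.3 and 9.46, against 56.2 and 23.1 at the 39 genes, and the same medians over all genes of the 2 classes were 20.6 and 11.4 against 55.5 and 27. FOXB1, a factor of the hypothalamus, had the highest H3K4me3 of the 20, at 40.2 and 29.2, with summits 1979 and 2030 bp downstream of the TSS, outside the 1 kb window. FOXD3, which marks pluripotent cells and neural crest, had 24.9 and 15.5, and SOX1, an early neural factor, had 5.19 and 3.70. TBX20, a heart factor, had 32.8 and 15.6, TBX1, of the pharyngeal arches, 29.0 and 12.1, and EOMES, of the primitive streak, 25.8 and 13.8. SOX17, of endoderm and endothelium, had 18.1 and 10.5, and GATA5 had 14.5 and 5.92. The 39 genes with both marks ran from 27.8 to 80.4 in replicate 1 and from 9.39 to 38.5 in replicate 2, and FOXB1, FOXB2, FOXQ1, TBX1 and TBX20 lay within these ranges in both replicates, so the classes overlapped in H3K4me3 height. When the summit had to lie in the window, FOXB1 and TBX1 had neither mark, while FOXB2, FOXQ1 and TBX20 kept their class.

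At 13 genes neither histone mark was found at the TSS in either replicate. These were FOXI1, FOXN1, FOXN3, FOXN4, FOXR1 and FOXR2, then SOX10, SOX13 and SOX15, then GATA1 and GATA4, and TBX10 and TBX19. GATA1, the factor of red blood cells, had its nearest H3K4me3 peak 18336 and 18212 bp away, and FOXN4, of retina, 60645 and 60595 bp away. SOX10, of neural crest and glia, had the nearest H3K4me3 at 6708 and 6572 bp and H3K27ac at 20044 and 19941 bp. A missing peak means that none passed the authors' threshold, not that the mark was absent.

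At 5 genes H3K27ac was called in replicate 2 and not in replicate 1, and the peaks were low. Their fold enrichment was 3.35 at FOXA1, 3.35 at FOXF2, 4.45 at FOXJ1, 3.22 at GATA3 and 7.06 at TBX5. H3K4me3 was called in replicate 1 and not in replicate 2 at FOXE3 (16.4) and FOXI2 (5.19). For CTCF the replicates differed at FOXA3, FOXO1, SOX18 and SOX21, each with a peak in replicate 2 alone.

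The promoters of the 3 main classes were then compared by sequence. The 250 bases upstream of the TSS are shown for genes of each class, 5′ to 3′ on the strand of the gene, from the Sscrofa11.1 assembly, with each CpG dinucleotide in capitals, since CpG-rich promoters are those where H3K4me3 is commonly found. SOX5 had both marks, FOXD3 and SOX1 had H3K4me3 without H3K27ac, and GATA1 and FOXR1, a germ line gene, had neither.
SOX5 (chr5:49159700-49159949, plus strand): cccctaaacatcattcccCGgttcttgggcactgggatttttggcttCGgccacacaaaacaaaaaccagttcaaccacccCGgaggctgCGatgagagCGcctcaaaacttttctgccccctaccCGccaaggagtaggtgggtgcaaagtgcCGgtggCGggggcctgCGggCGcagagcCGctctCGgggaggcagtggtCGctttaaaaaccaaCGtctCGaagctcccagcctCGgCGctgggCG
FOXD3 (chr6:149155577-149155826, minus strand): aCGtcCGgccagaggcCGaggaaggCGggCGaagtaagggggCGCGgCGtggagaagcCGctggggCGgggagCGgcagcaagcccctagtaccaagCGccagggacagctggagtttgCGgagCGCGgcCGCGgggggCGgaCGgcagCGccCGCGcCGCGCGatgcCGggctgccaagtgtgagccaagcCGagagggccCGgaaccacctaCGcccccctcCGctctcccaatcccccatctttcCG
SOX1 (chr11:77985521-77985770, plus strand): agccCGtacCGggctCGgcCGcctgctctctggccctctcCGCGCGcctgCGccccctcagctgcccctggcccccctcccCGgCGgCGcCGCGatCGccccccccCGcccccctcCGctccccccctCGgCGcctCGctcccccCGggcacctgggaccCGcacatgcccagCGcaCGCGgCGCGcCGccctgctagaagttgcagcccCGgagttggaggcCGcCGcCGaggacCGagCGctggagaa
GATA1 (chrX:42898181-42898430, plus strand): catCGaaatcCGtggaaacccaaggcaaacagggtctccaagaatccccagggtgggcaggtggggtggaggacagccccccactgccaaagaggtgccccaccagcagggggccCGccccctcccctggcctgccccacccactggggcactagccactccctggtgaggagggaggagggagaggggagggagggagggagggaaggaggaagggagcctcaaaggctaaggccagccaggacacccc
FOXR1 (chr9:46208500-46208749, plus strand): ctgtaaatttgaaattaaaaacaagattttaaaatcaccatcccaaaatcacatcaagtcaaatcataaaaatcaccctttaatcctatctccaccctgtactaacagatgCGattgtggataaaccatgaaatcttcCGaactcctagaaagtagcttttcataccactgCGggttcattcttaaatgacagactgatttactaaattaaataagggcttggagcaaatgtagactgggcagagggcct
The SOX5 stretch holds 18 CpGs, whereas FOXD3 holds 31, SOX1 33, GATA1 3 and FOXR1 3. The GATA1 stretch is 67.6% G and C, and it has few CpGs despite this, with an observed to expected CpG ratio of 0.106 against 0.770 for SOX5, whose G and C content is 61.2%.

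Over the 300 bases from 250 upstream to 50 downstream of the TSS, the median observed to expected CpG ratio was 0.844 for the 39 genes with both marks, 0.809 for the 20 with H3K4me3 alone and 0.348 for the 13 with neither. The same ratio over all genes was 0.792, 0.698 and 0.266 in these classes. The medians of the 2 classes with H3K4me3 were close to each other, and the median of the unmarked genes was lower, also over all genes. Among short motifs searched on both strands of the same 300 bases, GGGCGG, the letters bound by SP factors, was found in 52 of 80 promoters (65%, against 50.7% of all). TATAAA was found in 5 (6.25%, against 10.8%) and CCAAT in 22 (27.5%, against 35.3%). GGGCGG was found in 17 of the 20 genes with H3K4me3 alone, against 63.4% of all genes of that class, and in 27 of the 39 with both marks (69.2%, against 67.2%). A match of letters is not evidence that a factor binds.

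CpG number and the length of H3K4me3 were also compared over a wider region. The 10 kb around the TSS held a median of 384 CpGs at the 80 genes and 211 at all genes, and 464 at the 20 genes with H3K4me3 alone. H3K4me3 peaks covered a median of 4202 and 4475 bp of these 10 kb at the 80 genes (4339 ± 193, SD, n = 2 replicates), against 2307 and 2457 bp at all genes. The SD is between the 2 libraries and not among genes. At least 5 kb were covered in both replicates at 28 of the 80 genes (35%, against 8.94%), and H3K27ac covered as much at 14 (17.5%, against 11.3%). Homeobox and PAX genes had a median of 5384 ± 438 bp. Across the 80 genes, which share the 2 libraries, Spearman's rho between CpG number and H3K4me3 covered length was 0.585 and 0.561 in replicates 1 and 2, against 0.495 and 0.452 over all genes. Among the 64 genes with H3K4me3 it was lower, 0.388 and 0.351. With H3K27ac covered length it was 0.159 and 0.194 across the 80 genes, -0.0401 and 0.00522 across the 64, and 0.324 and 0.354 over all genes. These are descriptions. Of the 80 genes, 56 were in the highest of 5 equal groups of all genes by CpG number. In that group the 56 had a median H3K4me3 cover of 5074 and 6233 bp, against 3336 and 3353 bp for all 3877 genes of the group, and 32.1% of the 56 had H3K4me3 without H3K27ac, against 13.5%. In the next lower group, 13 of the 80 genes had a median cover of 2485 and 2924 bp, against 2822 and 2962 bp. Of these 13, 7.69% had H3K4me3 without H3K27ac, against 9.31% of all genes of that group. The wider cover and the larger share without H3K27ac were thus seen in the highest group and not in the next. The lower groups held few of the 80 genes, and genes were not matched for CpG number within a group.

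**Figure D2:**
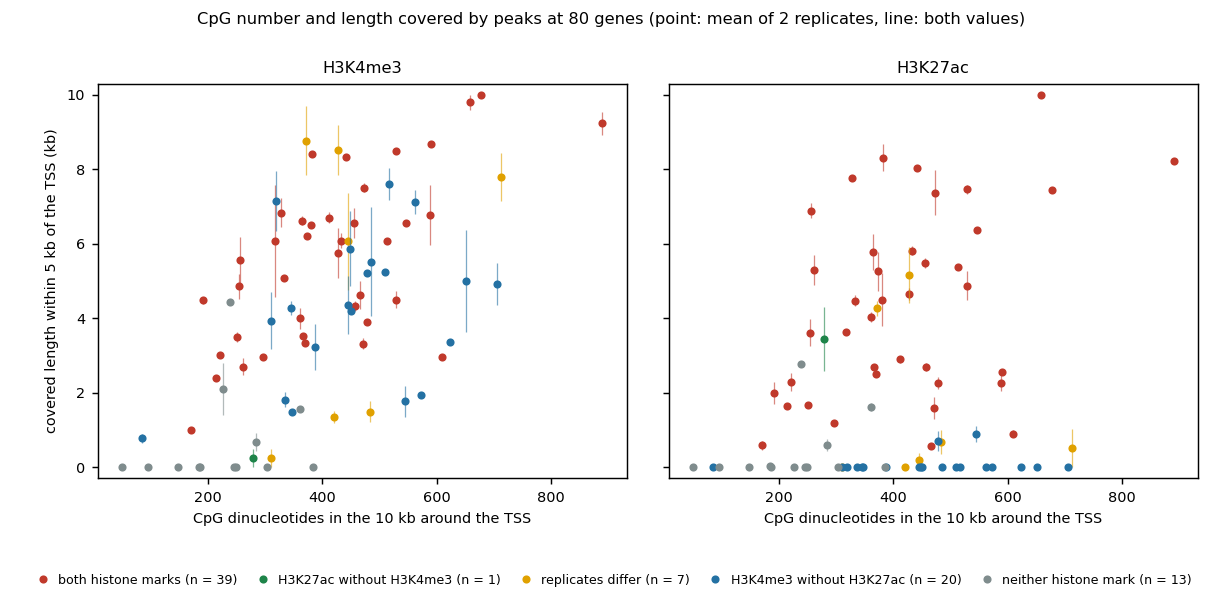
Number of CpG dinucleotides in the 10 kb around the TSS (horizontal axis) against the length covered by peaks within 5 kb of the TSS in kb (vertical axis), for H3K4me3 (left) and H3K27ac (right), with 1 point for each of the 80 genes at the mean of 2 replicates and a line between the replicate values. For H3K4me3 rho was 0.585 and 0.561, and 0.388 and 0.351 among the 64 genes with H3K4me3, and for H3K27ac the blue points lie near 0 at any CpG number.

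The wide cover was found in both classes with H3K4me3. The 39 genes with both marks had a median of 5060 and 6175 bp (5618 ± 788), against 3145 and 3347 bp for all genes of the class. The 20 genes with H3K4me3 alone had 3843 and 4582 bp (4213 ± 523), against 1744 and 1948 bp. Since these 20 are short, with a median length of 4003 bp against 31948 bp for all genes of the class, H3K4me3 covered a median of 52.2% and 52.1% of the gene, against 4.19% and 4.59%. FOXB2 had the widest cover of the 20, with 7186 and 8038 bp, and it was followed by TBX20 with 6355 and 7953 bp and FOXD3 with 6791 and 7457 bp. Next came SOX21 with 4869 and 6873 bp, SOX17 with 4054 and 6982 bp, FOXA2 with 5182 and 5300 bp, TBX1 with 5197 and 5251 bp, and SOX1 with 3632 and 6364 bp. EOMES had 4078 and 4464 bp and GATA5 1866 and 1992 bp. Replicate 2 was wider than replicate 1 at each gene named here, and SOX1, SOX17 and SOX21 moved most between replicates, so their order is not settled. TBX20 and FOXD3 also changed order between replicates.

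**Figure D3:**
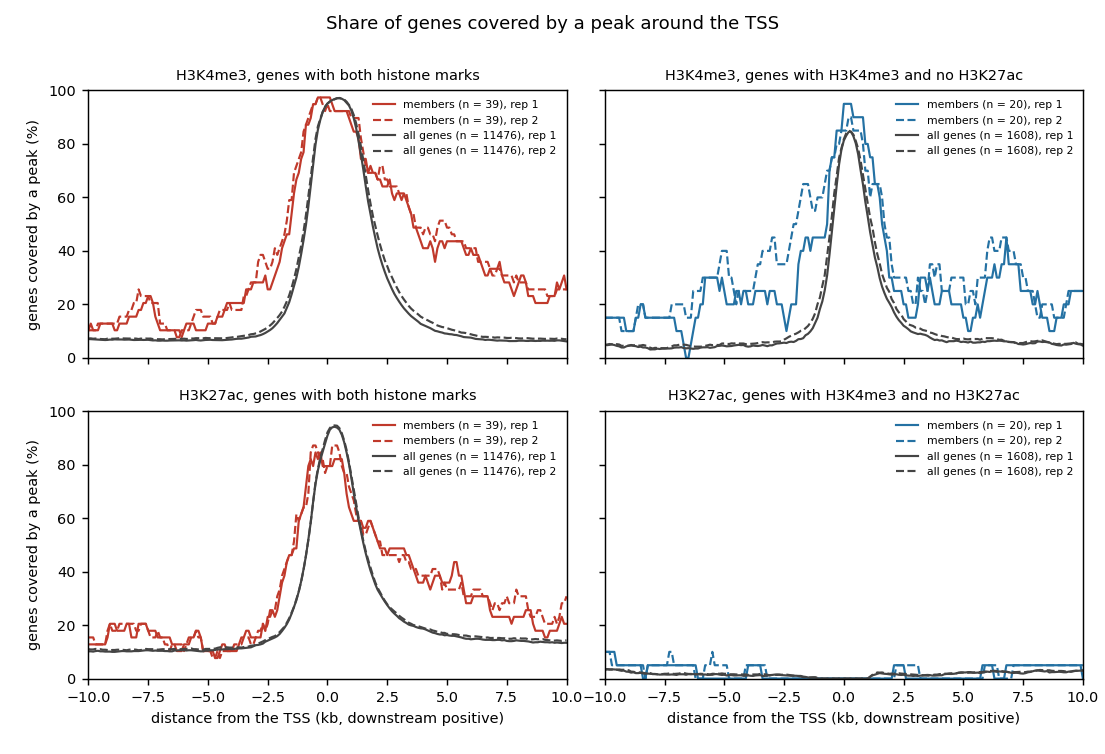
Percent of genes whose position at a given distance from the TSS (kb, downstream positive) lay in a peak, for H3K4me3 (top) and H3K27ac (bottom), in genes with both marks (left) and with H3K4me3 and no H3K27ac (right), solid for replicate 1 and dashed for replicate 2. At 2 kb downstream H3K4me3 covered 69.2% and 69.2% of the 39 genes against 44.9% and 49.4% of all 11476 genes with both marks, and at 5 kb it covered 43.6% against 9.02% in replicate 1.

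Single H3K4me3 peaks of at least 10 kb over the TSS in both replicates were found at 6 of the 80 genes, or 7.5%, against 0.508% of all genes. They were FOXF1, GATA2, GATA3, TBX2, TBX3 and TBX15. The TBX2 peak spanned 17868 and 17528 bp, and its H3K27ac peak was longer still, at 25639 and 20577 bp. TBX3 had H3K4me3 over 16154 and 17173 bp and H3K27ac over 12303 and 12044 bp. GATA3, known from T cells and skin, had the longest H3K4me3 peak in replicate 2, 17522 and 20351 bp, while H3K27ac at its annotated start was called in replicate 2 alone with a width of 1824 bp. GATA2, a factor of blood stem cells, had 15626 and 15217 bp of H3K4me3 and 706 and 2987 bp of H3K27ac. TBX15 had H3K27ac over 12245 and 12747 bp and FOXF1 over 7449 and 6904 bp. Thus H3K27ac at the annotated start was shorter at the 2 GATA genes than at the other 4 in each replicate.

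CTCF lay at the TSS of 21 of the 80 genes in both replicates (26.2%, against 17.9% of all genes). At TBX15 the peaks of the replicates were separate, with summits at -142 and 936 bp from the TSS, so the count rests on different sites there. CTCF was found at 19 of the 39 genes with both histone marks (48.7%, against 24.5%), at 1 of the 20 with H3K4me3 alone (EOMES, against 17.4%), and at 0 of the 13 with neither (against 4.21%). Of the 18 mesenchyme and limb genes, 15 of which had both histone marks, 11 had CTCF at the TSS. The share was 17.9% over all genes and 24.5% over all genes with both marks. The highest values were at TBX6, of somites, with 43.3 and 45.2, and at FOXA1, SOX4 and GATA2, with 42.5 and 33.5, 37.6 and 46.5, and 33.9 and 44.8. FOXD1 had 32.2 and 41.0, FOXD2 25.7 and 36.1, SOX6 23.9 and 32.6, FOXM1 21.8 and 21.3, and SOX11 16.2 and 24.6. At the other 12 genes (FOXC2, FOXE1, FOXF1, FOXO3, FOXO6, FOXS1, SOX30, GATA6, EOMES, TBX3, TBX15 and TBX18) the values were lower, from 2.64 at TBX15 to 12.9 at FOXO3. The median CTCF peak in the lists had a fold enrichment of 19.6 and 19.1, so these 12 were below the median peak. With a window of 5 kb, 38 genes had CTCF, against 35.0% of all genes.

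A core of the CTCF motif, 12 letters long, was searched on both strands within 100 bp of the peak summit. It was found at 39.1% and 37.3% of all CTCF peaks in replicates 1 and 2, and at 2.76% and 2.69% of positions 1 kb away. Among the 21 genes, where the summit of the replicate 2 peak was used, the core was found at 8. These are shown with 9 bases on either side, the core in capitals, and the strand of the core.
FOXD1 (chr2:82612291-82612320, minus strand): gcgccgccaCCAGGAGGCGGCctcccccgc
FOXD2 (chr6:164114244-164114273, minus strand): ccgagtgggCCACGAGGGGGCgctgcggag
GATA2 (chr13:71980018-71980047, plus strand): ggcccgaggCCGCCAGGTGGCgctctgcgc
SOX4 (chr7:16886432-16886461, minus strand): gagaagccgCCGCCAGGTGGCagcgctgag
SOX6 (chr2:42446641-42446670, plus strand): tccactcgaCCTCAAGGTGGCgacttaggc
SOX30 (chr16:65642810-65642839, plus strand): ccgagggcgCCCCCAGCAGGCccgagttgc
TBX3 (chr14:37582746-37582775, minus strand): acagagtcgCCTCTAGGTGGCttatcgaga
TBX6 (chr3:18278340-18278369, minus strand): ccggcctggCCGCCAGGGGGCgccacgggc
The core lay on the strand of the gene at 6 of the 8, and on the opposite strand at SOX4 and TBX3. At FOXD2 the CTCF summit was at -65 and -70 bp from the TSS (negative upstream), and at TBX6 at -476 and -500 bp. At GATA2 it lay at -1103 and -1098 bp, outside the 1 kb window, which the peak reached with its edge. At FOXA1, one of the highest peaks, no such core was found within 100 bp of the summit, which says only that these letters are not in that window.

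H3K27ac around the genes was counted next. Within 50 kb of the TSS the 80 genes had a median of 4 and 4 H3K27ac peaks, against 4 and 5 over all genes, and 12 of the 80 had no H3K27ac peak in either replicate (15%, against 12.4%). The 39 genes with both marks had a median of 6 and 6 peaks, and so had all genes of that class, whereas the 20 genes with H3K4me3 alone had 1 and 1, again the same as all genes of the class. The 12 without H3K27ac were FOXA2, FOXB1, FOXB2, FOXI2, FOXN4, FOXR2, SOX1, SOX3, SOX14, SOX21, GATA4 and TBX22, and at SOX14 and SOX1 the nearest H3K27ac peak of replicate 2 was 248335 and 245056 bp away. FOXK1, a metabolic regulator, had the most H3K27ac peaks within 50 kb, 17 and 22. SOX12 had 13 and 16, FOXO1, a target of insulin signalling, 14 and 15, FOXL1, of gut mesenchyme, 11 and 14, and TBX2 11 and 12. H3K4me3 was missing within 50 kb at FOXI1 and FOXN4 alone among the 80 (2 genes, against 8.92% of all). CTCF peaks within 50 kb had a median of 3 and 3 at the 80 genes and at all genes, and 6 genes had none in either replicate (against 9.93%).

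**Figure D4:**
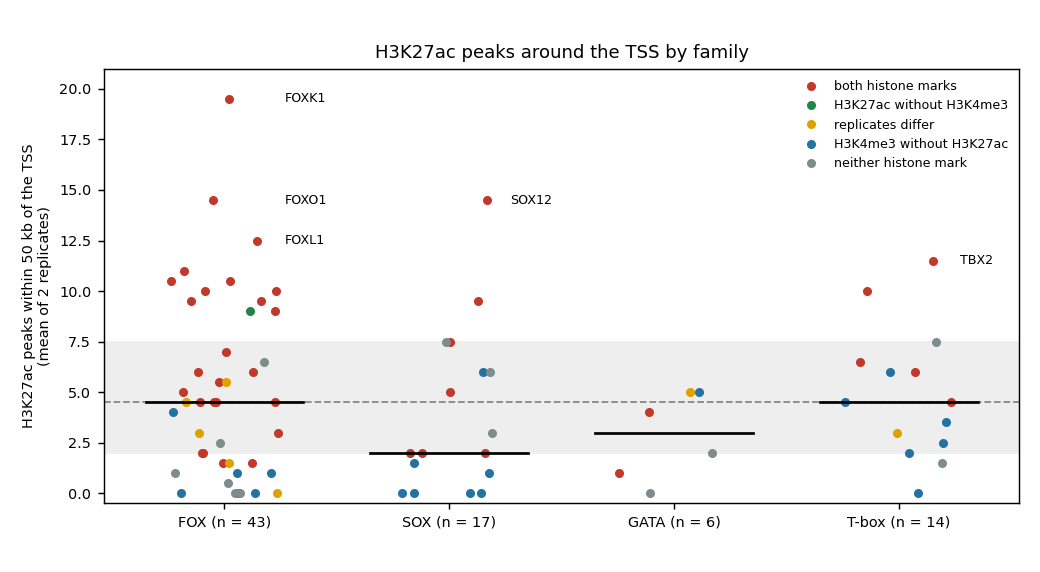
H3K27ac peaks within 50 kb of the TSS (mean of 2 replicates, 1 point per gene, coloured by class) by family, with black lines at the family medians and, in grey, the quartile range and median (dashed) over all genes. FOXK1, FOXO1, SOX12, FOXL1 and TBX2 are the 5 highest, and the blue points of genes with H3K4me3 alone lie at 6 or below.

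Inside the genes, H3K27ac peaks beyond the TSS were found at 29 of the 80 (36.2%, against 43.9%), H3K4me3 peaks at 38 (47.5%, against 31.0%) and CTCF peaks at 26 (32.5%, against 42.7%). FOXP1 and SOX5 had by far the most of the 80, both with 47 and 51 peaks, which placed both at rank 22 of 19487 genes. They are also long genes, of 627515 and 1006514 bp. Per 100 kb this was 7.81 for FOXP1 and 4.87 for SOX5, against a median of 2.61 (quartiles 0.696 and 6.24) over 5514 genes of at least 50 kb. FOXP2 and SOX6 are of similar length, at 555422 and 621434 bp, and had 6 and 2, and 9 and 9 peaks, or 0.720 and 1.45 per 100 kb. Hence FOXP1 was above the upper quartile of long genes and FOXP2 near the lower one, although H3K27ac at the FOXP2 start was among the highest of the 80 genes. Among the genes of at least 50 kb, FOXK1 was the densest of the 80 with 12 and 15 peaks, or 20.8 per 100 kb, and it was followed by FOXO1 (10 and 12 peaks, 11.8 per 100 kb) and FOXO3 (15 and 14 peaks, 10.8 per 100 kb).

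Some of the 80 genes have further annotated starts, and there the class could differ. FOXN3, which had neither mark at its first start, had H3K4me3 at 54.7 and 17.9 and H3K27ac at 18.1 and 22.4 at a cluster of starts 2209 bp downstream. GATA2 had H3K27ac at 3.73 and 4.02 at its first start and at 24.0 and 33.6 at starts 7604 bp downstream. GATA3, whose replicates differed at the first start, had H3K27ac at 12.9 and 14.7 and CTCF at 23.1 and 30.0 at starts 9096 bp downstream. SOX6 had H3K27ac at 20.3 and 27.7 at starts 5384 bp downstream. GATA4, of heart and gonad, had H3K4me3 at 27.6 and 17.8 and no H3K27ac at starts 25183 bp downstream. In SOX5, starts 597892 bp inside the gene had H3K4me3 at 21.3 and 15.5 and H3K27ac at 8.66 and 8.37. In FOXP1, starts 449585 bp inside the gene had 17.6 and 12.9, and 12.1 and 8.93. Counting any annotated start gave 66 genes with H3K4me3, 43 with H3K27ac and 21 with H3K4me3 alone, against 72.0%, 63.7% and 8.22% of all genes.

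Several of these genes lie next to each other. FOXL1, FOXC2 and FOXF1 lie on chromosome 6, with 10063 bp between the first pair of starts and 43081 bp between the second, and all 3 had both histone marks in both replicates. FOXC2, of lymphatic vessels and mesenchyme, had H3K27ac at 12.8 and 16, and FOXL1 at 19.4 and 17.1. Between FOXC2 and FOXF1 lay the summits of 4 and 6 H3K27ac peaks and of 6 and 6 CTCF peaks. On chromosome 7, FOXC1, FOXF2 and FOXQ1 did not share a class. FOXF2 starts 122087 bp from FOXC1 and had H3K4me3 at 15.3 and 7.89 and H3K27ac at 3.35 in replicate 2 alone, and FOXQ1 starts 50641 bp from FOXF2 and had H3K4me3 at 30.3 and 14.8 without H3K27ac.

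The T-box pairs were unequal as well. TBX4, of the hind limb, starts 57192 bp from TBX2 on chromosome 12. It had H3K4me3 at 10.1 and 6.52 and no H3K27ac, where TBX2 had H3K4me3 at 54.2 and 22.4 and H3K27ac at 19.2 and 27.2, and 4 and 4 CTCF summits lay between them. TBX5, of the forelimb and heart, starts 189501 bp from TBX3 on chromosome 14. It had H3K4me3 at 23.1 and 15.4 and H3K27ac in replicate 2 alone at 7.06, where TBX3 had H3K4me3 at 30.5 and 23.8 and H3K27ac at 21 and 22.8, and 9 and 8 CTCF summits lay between them. At its next starts, 1190 bp downstream, TBX5 had H3K27ac in both replicates at 3.48 and 7.64. FOXD2 and FOXE3 start 19027 bp apart on chromosome 6, where FOXD2 had both marks and FOXE3 had H3K4me3 in replicate 1 alone.

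**Figure D5:**
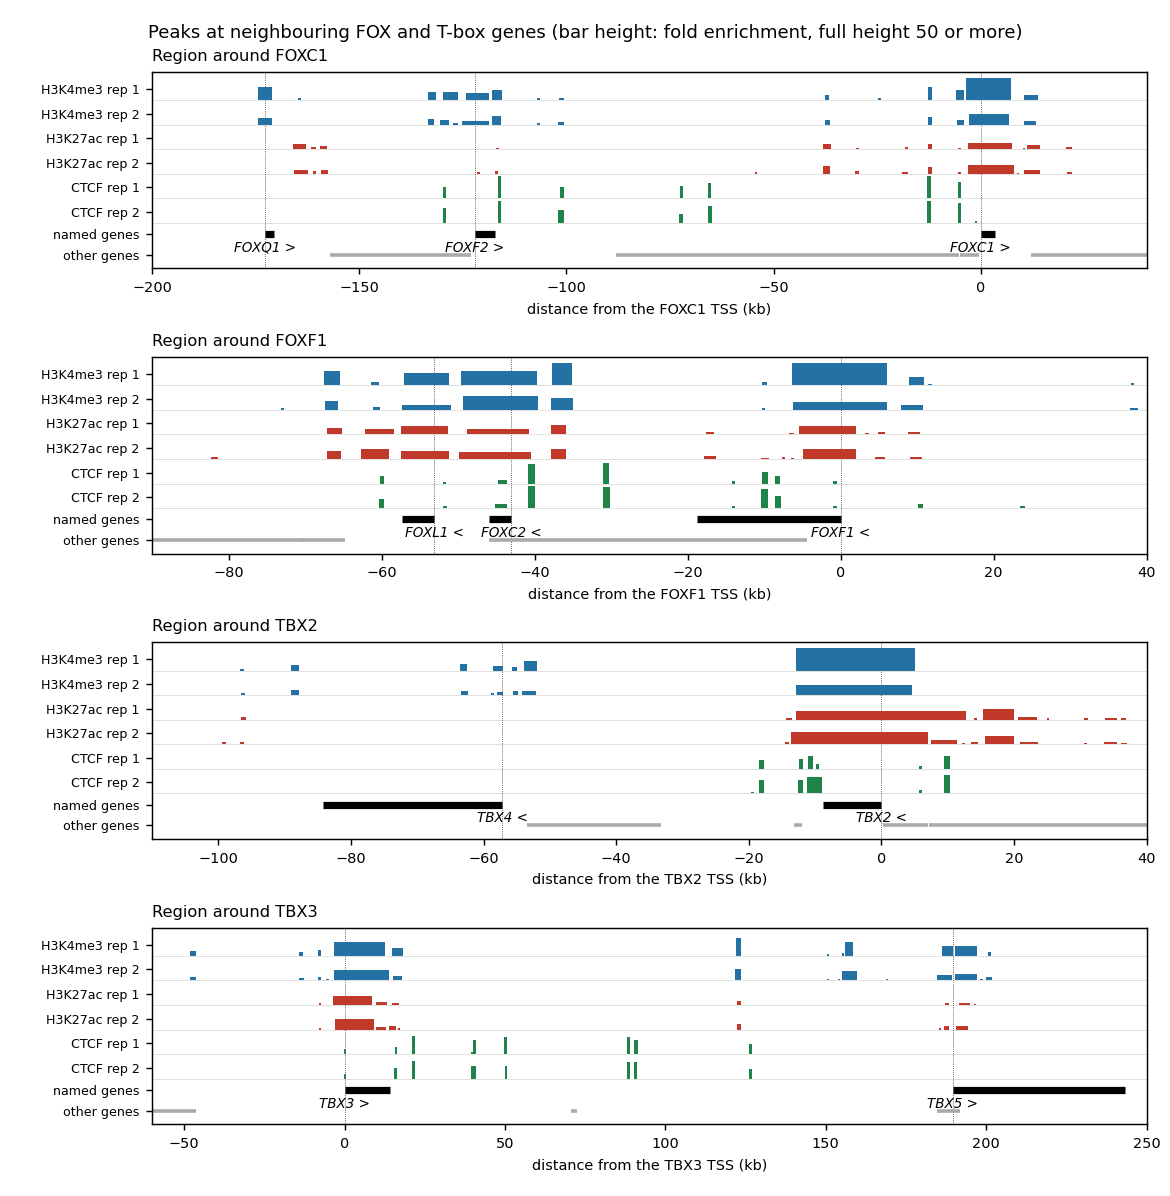
Peaks of the 6 libraries (bars, height by fold enrichment up to 50) and genes (black for the named FOX and T-box genes, with the direction of transcription, grey for others) by distance from the TSS of FOXC1, FOXF1, TBX2 and TBX3 in kb. H3K27ac bars stand over FOXC1, FOXL1, FOXC2, FOXF1, TBX2 and TBX3, and none stands over FOXQ1 or TBX4.

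Partners of these factors outside the 4 naming rules were looked up too. Of 9 listed partners and relatives found in the annotation, MGA, TLE2, TLE3, TLE4 and ZFPM1 had both histone marks, and LMO2, TRPS1, ZFPM2 and TBR1 had neither. TLE3, a corepressor that FOX proteins recruit, had H3K4me3 at 60.6 and 27.1 and H3K27ac at 22.6 and 31.7, and ZFPM1, a cofactor of GATA proteins, had 43.2 and 24.7, and 21.4 and 25.8. TBR1, the neural T-box relative of EOMES, had no peak of either histone mark at the TSS.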

How the data were processed

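ChIP-seq peak lists of H3K4me3, H3K27ac and CTCF in PEFs were used, with 2 replicates each. Per the labels and the methods, the authors mapped reads to Sscrofa11.1 with Bowtie2, removed duplicates and called narrow peaks in each library with MACS2 over a control. Per peak, the deposited lists hold a score in whole numbers (not used), the fold enrichment as a ratio of ChIP to control, and both p-value and q-value on a −log10 scale. The methods state a q-value of 0.01, but each deposited list goes on to a q-value between 0.0432 and 0.0499. The lists hold no read counts, so depth per peak is unknown and no counting interval is given. The 2 input libraries were not analysed here.

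Genes came from RefSeq (annotation release 106) on Sscrofa11.1. The TSS was the 5′ end of the gene. A peak counted with an overlap of at least 1 bp with the window of 1 kb on either side of the TSS, with the gene beyond it, or with the 50 kb on either side. Presence meant a peak in both replicates and absence a peak in neither. Sequences were read with pysam 0.24.0, and tables were made with pandas 2.3.3. No test was made. The peak assignment was tested on simulated data. TBXT was not analysed here, and the pair of SOX genes left out by the rule, the values of 1 further gene and 1 promoter sequence are not reported here.

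The genes, role lists and markers were chosen with earlier results of these data known. Genes named with values were the 3 per family with the highest H3K27ac at the TSS, the 3 per family with the widest H3K4me3 and no H3K27ac, those with H3K27ac alone, those with CTCF, the 5 with the most H3K27ac within 50 kb and in the gene, those whose replicates differed, those without either mark, and neighbours within 200 kb. Others were named after their values were seen. As alternatives, peaks were limited to a −log10 q-value of 5 or more or to equal numbers of the strongest peaks per library, the window was set to 5 kb, the start of any annotated transcript was used, the summit had to lie in the window, and each replicate was used alone.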

Additional observations from a re-analysis of the deposited data

How the results depend on the processing

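No paired analysis was possible because no result comes from a test. Of 65 values under the alternatives, 52 stayed within 1.5 times the count or within the spread of the replicates. With the summit in the window, 34 genes had H3K4me3 at the TSS, 25 had H3K27ac, 15 had both and 22 had neither, in place of 64, 40, 39 and 13, and 49 of the 80 genes kept their class. With a window of 5 kb, 38 genes had CTCF in place of 21 and 8 had neither histone mark, and TBX1 and SOX18 moved from H3K4me3 alone to both marks. The median number of H3K27ac peaks within 50 kb, taken over the mean of the replicates, was 4.50, and it was 3.25 at a −log10 q-value of at least 5, 4.25 by summits, 4 with equal numbers of peaks, and between 4 and 4 with each replicate alone. The median number of CTCF peaks within 50 kb was 3.5 in place of 3 when any annotated start counted. The median H3K4me3 cover, 4401 bp over the mean of the replicates, was between 4202 and 4475 bp with each replicate alone. Cover by summits is not defined and was not run. Of the 80 genes, 33 kept their class under all 7 alternatives. The count of genes with H3K4me3 and no H3K27ac lay between 15 and 27 under the 7 alternatives, and it was 27 with replicate 1 alone. The lists give no depth per peak, so a missing weak peak cannot be told from a missing mark.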
